A study of Mus musculus with 4 samples.

Results

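The MYT1 family of zinc finger transcription factors has 3 members in the mouse, Myt1, Myt1l and St18, and all 3 were found among the 55602 genes of the count table and among the 19995 genes with enough counts to be compared. The family was chosen with its result known, for the near loss of Myt1 and St18 fragments in Zfp57-/- cells, and because St18 lies on proximal chromosome 1. The fall of these genes between genotypes is therefore given as a description and without a test. JB1 is a male hybrid embryonic stem cell (ESC) line from a JF1 female and a C57BL/6 (B6) male. The cells, labelled as neural precursor cells, were derived from JB1 and from Zfp57-/- ESCs made from JB1, with 2 replicates of each genotype. The paper describes the Zfp57-/- cells as only partly differentiated and names them neural precursor-like cells. ZFP57 is a zinc finger protein that keeps methylation at imprinting control regions. Both genotypes were kept before differentiation in serum-free medium with the Gsk3 inhibitor CHIR99021, then differentiated in DDM, a chemically defined medium, with 1 µM cyclopamine, a sonic hedgehog inhibitor that directs progenitors towards dorsal fates, and harvested at day 12. The Zfp57-/- replicates carry 1 genotype label and no clone number, so that the effect of the line and of the mutation cannot be told apart in these libraries. No rescued line was analysed here. The paper also studied a Zfp57 knockout clone of another, inbred ESC line by immunofluorescence and quantitative RT-PCR. It described similar Pou5f1, Nestin and imprinted gene changes in that clone, which is not among these libraries.

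MYT1 family proteins carry clusters of CCHHC zinc fingers that bind DNA at AAGTTT elements, and recruit histone deacetylases through SIN3 corepressors. Myt1, also called Nzf2, was first studied in cells of the oligodendrocyte lineage, and in the embryo it counters Notch signalling and lateral inhibition in cells that leave the progenitor state. Myt1l, or Nzf1, is a neuron-specific repressor of non-neuronal programmes that is used together with Pou3f2 (Brn2) to convert fibroblasts into neurons. St18, or Nzf3 and Myt3, is expressed in developing neurons and in endocrine cells of the pancreas, where Myt1 is also found.

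Stranded paired-end libraries were made from total RNA without its ribosomal part. The deposited counts summed to between 7663520 and 10337082 fragments per library, and the allele-specific counts to between 2837013 and 3826604. Counts of Zfp57 itself were 392 and 249 in wild-type replicates 1 and 2, and 158 and 144 in the mutant replicates (log2 fold change -1.19, standard error 0.32, edgeR adjusted p = 0.0225), and the part of the gene removed was not analysed here. The Zfp57-/- libraries held pluripotency transcripts, as 11 of 12 pluripotency markers were higher in them, and Pou5f1, the core factor of pluripotent cells, gave 1 and 6 counts in wild-type libraries against 2747 and 2286. The paper reported less Pou5f1 and Nanog after differentiation than before it in both genotypes, a comparison that these libraries do not hold. By immunofluorescence at day 12, it also described Pou5f1 protein as down-regulated in all cells of both genotypes, with Nestin in most. The counts given here are of RNA and not of protein. Whether a gene is lower because fewer cells express it or because each cell holds less of its RNA cannot be told apart in these bulk samples. Wild-type replicate 2 stood apart from replicate 1 in several markers. The summed level of 12 endoderm markers was 7256 and 11990 counts per 1000000 fragments (CPM) in wild-type replicates 1 and 2, and that of 12 neuron markers 1880 and 2498 CPM. Most of the endoderm sum came from Col4a1 (3579 and 5907 CPM), Lama1 (2583 and 3572 CPM) and Sparc (728 and 1975 CPM).

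The promoters of Myt1 and Myt1l that start at the first base of each gene are shown, since these are the genes' own sequence where factors of the family and of its partners could bind. They run from 250 bases before to 50 bases after the transcription start (RefSeq, GRCm38.p6, plus strand), with AAGTTT or its reverse complement AAACTT in capitals. The promoter of St18 is not shown. Myt1 lies at chr2:181763082-181763381 and Myt1l at chr12:29528134-29528433.
Myt1: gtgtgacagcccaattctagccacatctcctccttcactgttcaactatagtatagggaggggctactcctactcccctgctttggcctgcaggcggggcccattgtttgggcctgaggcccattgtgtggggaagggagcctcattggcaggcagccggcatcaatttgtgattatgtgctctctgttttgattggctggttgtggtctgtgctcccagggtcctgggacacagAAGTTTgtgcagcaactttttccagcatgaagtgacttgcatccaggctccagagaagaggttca
Myt1l: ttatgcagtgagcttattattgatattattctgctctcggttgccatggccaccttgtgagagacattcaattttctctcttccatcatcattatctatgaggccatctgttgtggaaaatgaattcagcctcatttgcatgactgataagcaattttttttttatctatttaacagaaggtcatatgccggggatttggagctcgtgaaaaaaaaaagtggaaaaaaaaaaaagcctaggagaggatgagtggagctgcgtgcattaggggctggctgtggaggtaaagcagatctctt
The Myt1 window held 1 AAGTTT element, beginning 15 bases before the start site, and the Myt1l window held 0. Over all RefSeq start sites, 2 of 3 Myt1 promoters and 0 of 5 Myt1l promoters contained the element, and 14.4% of the 32851 promoters of the same length did. The Myt1l window contained 1 copy of the POU octamer ATGCAAAT (reverse ATTTGCAT), a site for POU factors such as Pou3f2 that 1.74% of all promoters contained. Neither window shown contained the E-box CAGCTG, present in 16.3% of promoters, or TGCCGC (reverse GCGGCA), the hexamer that ZFP57 binds when methylated, present in 11.6%. Over all start sites, each was in 1 of 5 Myt1l promoters and in 0 of 3 Myt1 promoters. Both strands were searched. These matches are letters in a window and not measured binding sites, and the absence of a match applies to these windows of 300 bases only.

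Myt1 (ENSMUSG00000010505.16) lies on chromosome 2 from 181763332 to 181827797 on the plus strand and spans 64.5 kb. It had 851 and 1027 counts in wild-type replicates 1 and 2, and 12 and 9 in Zfp57-/- replicates 1 and 2. Normalised by the TMM method, these were 105 and 98.0 CPM in wild-type cells (mean 102 ± 5.19, SD, n = 2) and 1.29 and 0.920 CPM in Zfp57-/- cells (1.10 ± 0.260, SD, n = 2). Both wild-type libraries were high and close to each other, both Zfp57-/- libraries were low, and the lower wild-type library was 76.1-fold above the higher Zfp57-/- library. The log2 fold change was -6.51 (standard error 0.28), and 1.09% of the wild-type level remained. It ranked 109 from the lowest of the 19995 genes.

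St18 (ENSMUSG00000033740.17), on chromosome 1 from 6487231 to 6860940 on the plus strand, spans 374 kb. It had 423 and 334 counts in wild-type replicates and 9 and 13 in Zfp57-/- replicates, or 52.4, 31.9, 0.966 and 1.33 CPM in the same order. The mean levels were 42.1 ± 14.5 CPM in wild-type and 1.15 ± 0.257 CPM in Zfp57-/- cells (SD, n = 2), a log2 fold change of -5.18 (standard error 0.37), and 2.72% remained. The groups did not overlap, with the lower wild-type library 24.0-fold above the higher Zfp57-/- library.

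Myt1l (ENSMUSG00000061911.15) spans 395 kb of chromosome 12, from 29528384 to 29923213 on the plus strand. Its counts were 200 and 116 for wild-type against 4 and 5 for Zfp57-/- replicates, or 24.8, 11.1, 0.429 and 0.511 CPM. The means were 17.9 ± 9.68 CPM in wild-type and 0.470 ± 0.0578 CPM in mutant cells (SD, n = 2), with a log2 fold change of -5.20 (standard error 0.55), and 2.62% remained. Wild-type replicate 1 was well above replicate 2, and the lower of them was 21.7-fold above the higher Zfp57-/- library. Without wild-type replicate 1 the log2 fold change was -4.55, and without wild-type replicate 2 it was -5.68. A pair of genes on the opposite strand overlap Myt1l, Gm20208 and C630031E19Rik, and both had 0 counts in all 4 libraries in this strand-specific count.

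In the whole comparison, 14.6% of the genes tested were called lower in Zfp57-/- cells, 32.6% had both wild-type libraries above both Zfp57-/- libraries, and 2.16% had a log2 fold change of -5 or lower. All 3 members belong to that last set, but since the family was chosen on this fall nothing is read from the count.

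Corrected for length, Myt1 was the most abundant member in wild-type cells, at 14.7 and 13.6 fragments per kilobase of exon per 1000000 fragments (FPKM). St18 followed at 8.10 and 4.93 FPKM, and Myt1l was lowest at 1.77 and 0.790 FPKM. No wild-type library of one member overlapped with those of another, so that the order Myt1, St18, Myt1l held in each wild-type library. In Zfp57-/- cells, Myt1 was at 0.179 and 0.128 FPKM and St18 at 0.149 and 0.206 FPKM, and these levels overlapped, while Myt1l was below both at 0.0306 and 0.0365 FPKM. The order of levels was not tested.

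**Figure D1:**
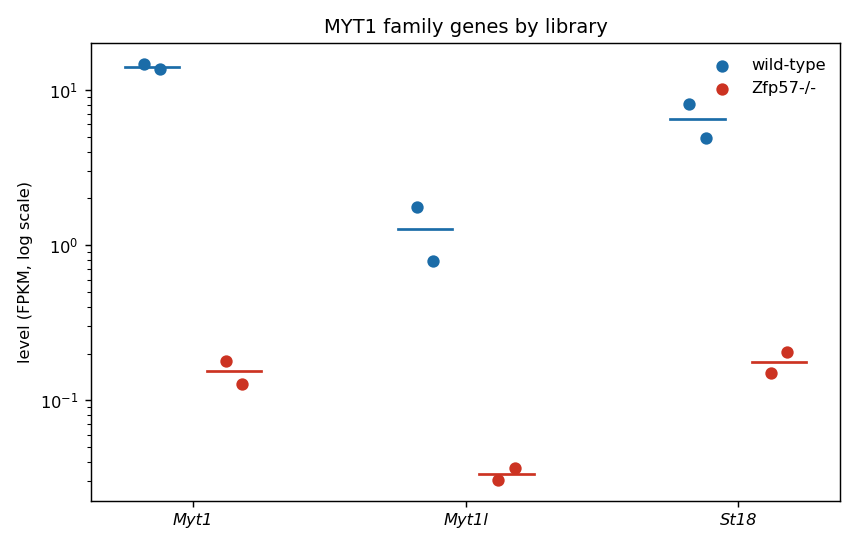
Level of each member per kilobase of exon (FPKM, log scale) in 2 wild-type (blue) and 2 Zfp57-/- (red) libraries, with points for libraries and lines for means. Wild-type points lie between 0.790 and 14.7 FPKM and Zfp57-/- points between 0.0306 and 0.206 FPKM.

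The members differed in how they varied between the wild-type replicates. From replicate 1 to replicate 2, the log2 CPM of Myt1 differed by -0.10, that of St18 by -0.71 and that of Myt1l by -1.15. The median over all genes tested was 0, the median of the 12 neuron markers was 0.53 and that of the 18 Notch pathway, Hes and Id genes was -0.37. St18 and Myt1l were thus lower in the library in which the neuron markers had the higher median. Among genes above 1 CPM on average, the difference also moved with the genomic span of the gene. Its median was 0.11 for the 5006 genes of up to 10 kb, -0.13 for the 1656 genes of 100 to 300 kb and -0.32 for the 481 genes longer than 300 kb, the class of St18 and Myt1l. In Zfp57-/- cells the same medians were -0.03, 0.04 and 0.01. Among genes with a log2 fold change of -4 or lower the medians were alike at both ends, -0.68 for 123 genes of up to 10 kb and -0.64 for 49 genes longer than 300 kb. The classes between were nearer to no difference, at -0.28 for 77 genes of 10 to 50 kb, -0.19 for 25 of 50 to 100 kb and -0.35 for 63 of 100 to 300 kb. The part of gene span or of the markers in the members' replicate difference was not tested. The median log2 fold change between genotypes was also lower among genes longer than 300 kb (-1.26) than among those of up to 10 kb (0.08).

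The allele-specific counts separate the JF1 (maternal) from the B6 (paternal) copy of a gene by the strain SNPs in the fragments. The family was chosen on the loss of fragments between genotypes and on the place of St18 on proximal chromosome 1, and the ratio between alleles within wild-type cells was not part of that choice. In wild-type cells, Myt1 had 157 JF1 and 202 B6 counts in replicate 1 and 188 and 215 in replicate 2. The allelic ratio, maternal over the sum of both, was 0.452 ± 0.0206 (SD, n = 2). St18 had 83 JF1 and 88 B6 counts in replicate 1 and 60 and 51 in replicate 2, a ratio of 0.513 ± 0.0390 (SD, n = 2). Both genes were read from both alleles. With the 2 wild-type replicates pooled, the exact 95% interval of the JF1 share was 0.417 to 0.489 for Myt1 and 0.447 to 0.567 for St18. The Myt1 interval lay below an equal share, but it covers counting error only and not the spread between replicates. The log2 ratio of JF1 to B6 counts was -0.28 for Myt1 (standard error 0.15, approximate 95% interval -0.58 to 0.02, edgeR adjusted p = 0.216) and 0.06 for St18 (0.25, -0.43 to 0.54, adjusted p = 0.920), neither past the threshold, in a test that called 23.4% of the 11079 autosomal genes, 14.2% with JF1 and 9.22% with B6 higher. Under the 5 alternative fits, neither was called.

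Both alleles of both genes were almost without fragments in Zfp57-/- cells. Myt1 had 0 allelic counts in Zfp57-/- replicate 1, and 2 JF1 and 6 B6 counts in replicate 2. St18 had 0 in replicate 1, and 1 JF1 and 3 B6 counts in replicate 2. The exact (Clopper-Pearson) 95% intervals of the JF1 share in replicate 2 were 0.0319 to 0.651 for Myt1 and 0.00631 to 0.806 for St18, so that an allelic ratio could not be read at this depth. Intervals of this kind cover counting error only.

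Myt1l was poorly covered by SNPs. In wild-type cells it had 11 JF1 and 1 B6 counts in replicate 1 and 7 and 0 in replicate 2, so that 18 of 19 allelic counts were maternal (exact 95% interval 0.740 to 0.999 of the JF1 share). It had 0 allelic counts in Zfp57-/- cells and did not reach the minimum of 10 allelic counts in both wild-type libraries, so it was not tested. The allelic counts were 6.01% of its bulk counts, against 40.6% for Myt1 and 37.3% for St18 and a median of 45.2% over the 11247 autosomal genes with at least 100 wild-type counts, of which 11.3% were as low or lower. Of the 9 genes within 1000 kb of Myt1l with at least 100 wild-type counts, 5 had no allelic counts at all and 6 had under 5%. Among 416 autosomal genes with 10 to 40 allelic counts in wild-type cells, 16.1% had a ratio of at least 0.9 or at most 0.1. Pxdn, the nearest gene, which encodes an extracellular matrix peroxidase, had 140 and 198 wild-type allelic counts (ratio 0.524 in wild-type, 0.493 in Zfp57-/- cells).

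**Figure D2:**
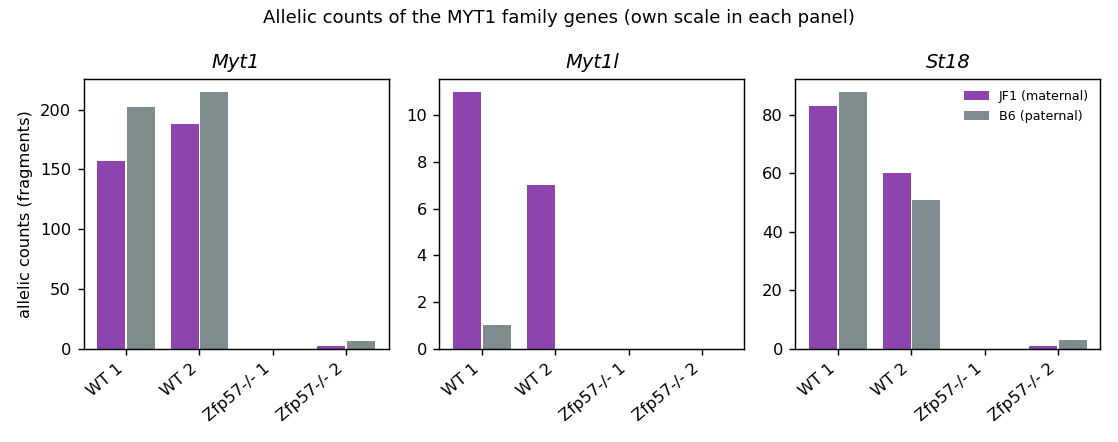
JF1 (maternal, purple) and B6 (paternal, grey) counts of each member in the 4 libraries, with a separate linear scale from 0 in each panel. Both alleles of Myt1 and St18 are present in wild-type libraries, Myt1l rests on 12 and 7 allelic counts, and no Zfp57-/- library has more than 8.

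Most genes around the members were not called in either direction, where 27.6% of all genes were. Around St18, 8 genes were tested within 1000 kb and 0 were called by edgeR (0 at an unadjusted p under 0.05, and 0 by DESeq2), with log2 fold changes from -0.98 to 0.40. The nearest were Gm19026, with 5 counts or fewer in each library, at 45.9 kb before, and Pcmtd1, a gene of the protein carboxyl methyltransferase family, at 228 kb after (846 and 711 wild-type counts, 878 and 868 Zfp57-/- counts, log2 fold change 0.09, adjusted p = 0.815). Rb1cc1, which encodes an autophagy scaffold, was at 0.40 (adjusted p = 0.148). The 4 of these genes with at least 10 allelic counts in every library had wild-type ratios of 0.419 to 0.632 and Zfp57-/- ratios of 0.651 to 0.733, higher in Zfp57-/- cells in 4 of 4. The place of St18 in this stretch of chromosome 1 was part of its choice, so this shift is a description. St18 itself, with 4 allelic counts in Zfp57-/- cells, gives no reading of that shift.

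Around Myt1, 38 genes were tested within 1000 kb, of which 3 were called higher and 8 lower, and 23 within 500 kb, of which 4 were called. The nearest on each side were Oprl1, the nociceptin receptor, 42.3 kb before Myt1, and Pcmtd2, 10.1 kb after it. Oprl1 counts were 40 and 88 against 14 and 10 in mutant cells (-2.40 on the log2 scale, adjusted p = 0.00743), and Pcmtd2 had 408 and 393 against 280 and 302 (-0.53, adjusted p = 0.0989). Oprl1 was not called without Zfp57-/- replicate 2. The genes called higher were Rtel1, a DNA helicase (1.13, adjusted p = 0.00233), Helz2 (1.15, adjusted p = 0.0223) and Birc7 (2.04, adjusted p = 0.0497). None of them was called with Actb as the scale. Actb itself was uneven, at 1812 and 3596 CPM in wild-type and 3764 and 4013 CPM in Zfp57-/- replicates 1 and 2. The median log2 fold change of all genes was -0.68 on that scale. DESeq2 called 10 of the 38. The median log2 fold change of the 38 genes was -0.23. The allelic ratios of the 25 with enough reads had a wild-type median of 0.482 and a Zfp57-/- median of 0.495.

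Around Myt1l, 12 genes were tested and 3 called, 2 higher and 1 lower. The nearest on each side were Pxdn, 14.4 kb after it (2479 and 3542 wild-type counts, 2908 and 3860 Zfp57-/- counts, log2 fold change 0.13, adjusted p = 0.664), and Eipr1, 659 kb before it (0.08, adjusted p = 0.835). The gene called lower was Sntg2, a syntrophin (14 and 10 against 1 and 2 counts, adjusted p = 0.0441), and it was not called by DESeq2, which called 1 of the 12 genes.

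**Figure D3:**
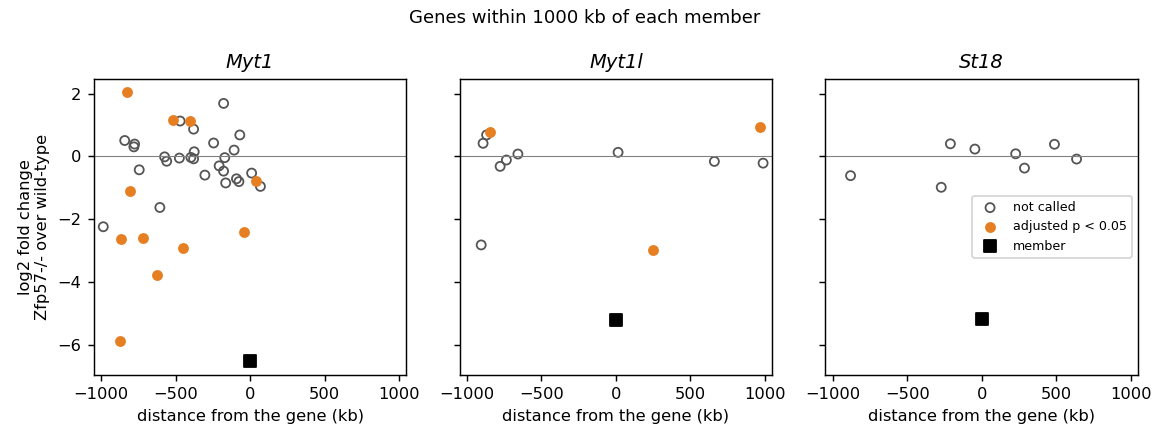
Log2 fold change (Zfp57-/- over wild-type) of the genes tested within 1000 kb of each member against their distance in kb, with orange points for adjusted p under 0.05, open points for genes not called and a black square for the member. None of the 8 genes around St18 is called.

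The genes whose profile over the 4 libraries was most like that of each member were found by the root mean square difference of mean-centred log2 CPM. For Myt1 these were Barhl1 (0.212), Dcx (0.235), Kcnk9 (0.291), Nhlh2 (0.295) and Lhx9 (0.313). Barhl1, Nhlh2 and Lhx9 encode transcription factors of developing neurons, Dcx the microtubule protein doublecortin of migrating neurons and Kcnk9 a potassium channel. The paper lists Kcnk9 in the imprinted Trappc9 domain, as down-regulated in the mutant, with a maternal preference in wild-type cells that was not significant. The part of imprinting in the fall of Kcnk9 was not tested. Dcx had 1795 and 2663 wild-type counts against 24 and 29, and Barhl1 had 158 and 215 against 0 and 0. Kcnk9 also had 0 and 0 in Zfp57-/- cells. The fitted log2 fold change was -10.6 for both Barhl1 and Kcnk9, against -6.51 for Myt1. The prior count of 2 holds up the log2 CPM of genes with few counts, so the likeness of profiles rests partly on count level.

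For St18 the most alike were Epha5 (0.139), Ndst3 (0.157), Nwd2 (0.159), Nrxn3 (0.164) and Slitrk1 (0.165). Epha5 encodes an ephrin receptor, Nrxn3 a presynaptic neurexin and Slitrk1 a synaptic adhesion protein. Epha5 had 834 and 546 wild-type counts against 16 and 28. For Myt1l they were Ndst3 (0.0930), which encodes a heparan sulfate sulfotransferase, Gm44286 (0.110), Gm27544 (0.132), Ldb2 (0.134), a LIM domain cofactor, and Nrxn3 (0.136). Ndst3 and Nrxn3 were on both lists.

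St18 and Myt1l differed from each other by 0.230, while Myt1 differed from St18 by 0.765 and from Myt1l by 0.933. The 4 points of a profile share the contrast between genotypes and the wild-type replicate difference, so that these numbers are descriptions.

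**Figure D4:**
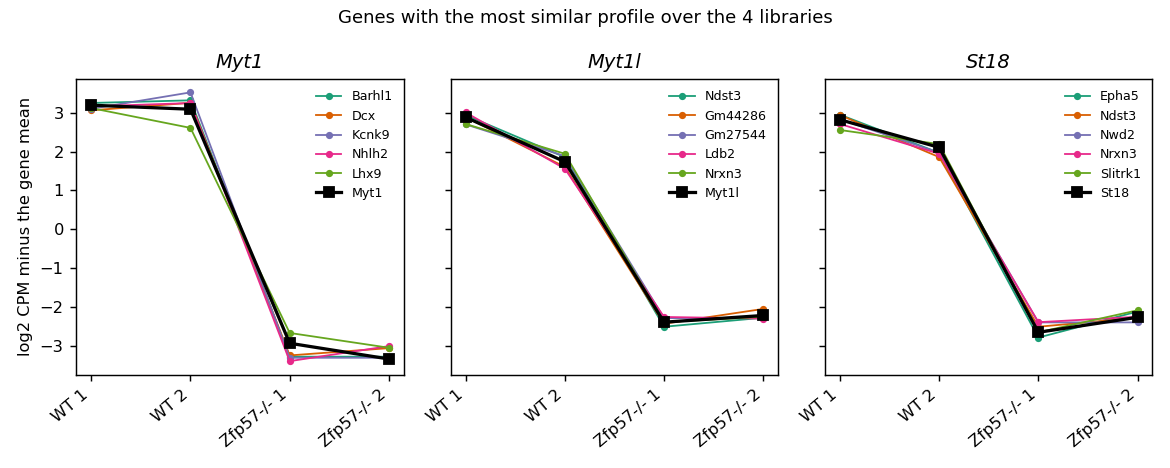
Log2 CPM minus the gene's mean in each library, for each member (black squares) and the 5 genes with the smallest root mean square difference from it. Myt1 and its nearest genes are level between the wild-type replicates or differ in either direction, while Myt1l, St18 and their nearest genes are lower in wild-type replicate 2.

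Of 13 neuronal differentiation factors, the partners and proneural genes near which the family acts, 11 were tested, 10 fell, none rose and their median log2 fold change was -5.15, beside -0.01 over all genes and 14.6% of genes called lower. Nhlh2, a helix-loop-helix factor of newborn neurons, had 901 and 1240 wild-type counts against 9 and 13 (-6.63, adjusted p = 1.71e-06). Pou3f2, the partner of Myt1l in reprogramming, had 1492 and 1543 against 36 and 23 (-5.74, adjusted p = 2.79e-06), and Pou3f3 1162 and 1188 against 51 and 48 (-4.63, adjusted p = 3.44e-06). Neurog2, a proneural gene, had 113 and 174 against 4 and 4 (-5.15, adjusted p = 3.15e-05). Neurod1 was not called (57 and 38 against 20 and 23, -1.23, adjusted p = 0.0969).

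Of the 18 Notch pathway, Hes and Id genes, which the family counters, 12 fell and none rose, with a median of -1.15. Over all genes tested, 14.6% were called lower. Hes5, a Notch effector of neural progenitors, fell from 317 and 459 to 12 and 10 counts (-5.16, adjusted p = 4.62e-06). Dll1, a Notch ligand, fell by 2.67 on the log2 scale (adjusted p = 3.15e-05), Id2, an inhibitor of helix-loop-helix factors, fell by 2.05 (adjusted p = 7.47e-05) and Notch1 fell by 1.35 (adjusted p = 0.00311). Hes1, a repressor of proneural genes that MYT1 proteins are known to bind, had 590 and 943 wild-type counts against 719 and 915 (0.07, standard error 0.20, adjusted p = 0.843).

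Among 19 subunits of the SIN3-HDAC and LSD1 corepressors that the family recruits, 1 was higher, 2 lower and 16 not called, with a median of -0.01. Of all genes tested, 27.6% were called. Brms1 rose by 0.85 on the log2 scale (117 and 194 against 305 and 264 counts, adjusted p = 0.0257), but was not called with Actb as the scale. Hdac2 fell by 0.65 on the same scale (adjusted p = 0.0317) and Rcor2 fell by 0.60 (adjusted p = 0.0355). The log2 fold changes of Sin3b (0.33, adjusted p = 0.225), Hdac1 (0.61, adjusted p = 0.0535) and Kdm1a, which encodes LSD1 (-0.19, adjusted p = 0.477), did not pass. The count called was 0 without either Zfp57-/- replicate, 7 without wild-type replicate 1 and 9 without wild-type replicate 2. Rest, the repressor of neuronal genes in non-neuronal cells, rose from 1141 and 1613 to 3133 and 3342 counts (1.20, adjusted p = 0.00123). It was not called with Actb as the scale. The median of all genes was -0.68 on that scale, where Rest was at 0.53 and Brms1 at 0.24.

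Markers of the cells in which these genes are read moved as follows, where 14.6% of all genes tested were called lower. Of 12 neuron markers 11 fell, with a median of -3.33 and a summed level of 1880 and 2498 CPM in wild-type and 302 and 251 CPM in Zfp57-/- cells. Dcx fell by 6.42 on the log2 scale (adjusted p = 1.71e-06), Map2, a dendritic microtubule protein, fell by 4.23 (adjusted p = 4.04e-06), Elavl4 fell by 4.12 (adjusted p = 4.36e-06) and Tubb3, neuronal tubulin, fell by 2.95 (adjusted p = 0.000162). Of 10 neural progenitor markers 7 fell, with a median of -2.86 and sums of 1726 and 1994 against 1166 and 1181 CPM. Besides Hes5, Msi1 fell by 2.92 (adjusted p = 1.35e-05), Fabp7 fell by 3.00 (adjusted p = 1.38e-05) and Nes fell by 0.91 (adjusted p = 0.00524). The part of these markers in the fall of the members was not tested.

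Pluripotency markers went the other way, with 11 of 12 higher, where 2607 of the 19995 genes tested were, a median of 7.41, and sums of 124 and 222 CPM in wild-type and 2259 and 2135 CPM in mutant cells. Esrrb had 14 and 31 wild-type counts against 2267 and 2290 (adjusted p = 1.71e-06), Klf2 4 and 7 against 889 and 824 (adjusted p = 1.71e-06) and Tdgf1 0 and 2 against 2301 and 2301 (adjusted p = 1.71e-06). Nanog was at 0 in both wild-type libraries.

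Of 11 oligodendrocyte lineage genes, the cells in which Myt1 was first studied, 8 were tested. Olig1 rose by 2.19 and Olig2 by 1.71 on the log2 scale (adjusted p = 0.00439 and 0.0174), from 14 and 18 and from 18 and 19 counts to 69 and 82 and to 59 and 67. The list had 2 genes called higher and 2 lower, and Mbp, a gene of myelin, fell by 1.36 (adjusted p = 0.00451). Sox10, which defines the lineage, had 2 and 12 wild-type counts against 6 and 7, and Mag, Mog and Nkx2-2 did not exceed 3 counts anywhere. The list's median was 0.25 and became -0.24 with Actb as the scale, on which the median of all genes was -0.68. Neither Olig1 nor Olig2 was called with Actb as the scale or without Zfp57-/- replicate 2. In place of 4, 1 gene was called without Zfp57-/- replicate 1, and 1 without Zfp57-/- replicate 2.

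Of 13 endocrine pancreas genes, chosen because Myt1 and St18 are also expressed in islet cells, 8 were tested, 4 fell and none rose, with a median of -2.34. The share called lower was 14.6% over all genes tested. Chgb, a secretory granule protein shared by neurons and endocrine cells, fell from 476 and 500 to 7 and 14 counts (-5.58, adjusted p = 4.97e-06), Isl1, a LIM factor also of neurons, fell by 1.90 (adjusted p = 0.00210) and Sst, the peptide somatostatin, fell by 4.85 (adjusted p = 0.00217). The defining islet genes Pdx1, Pax4, Ins1, Ins2 and Neurog3 had at most 3 counts in every library.

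**Figure D5:**
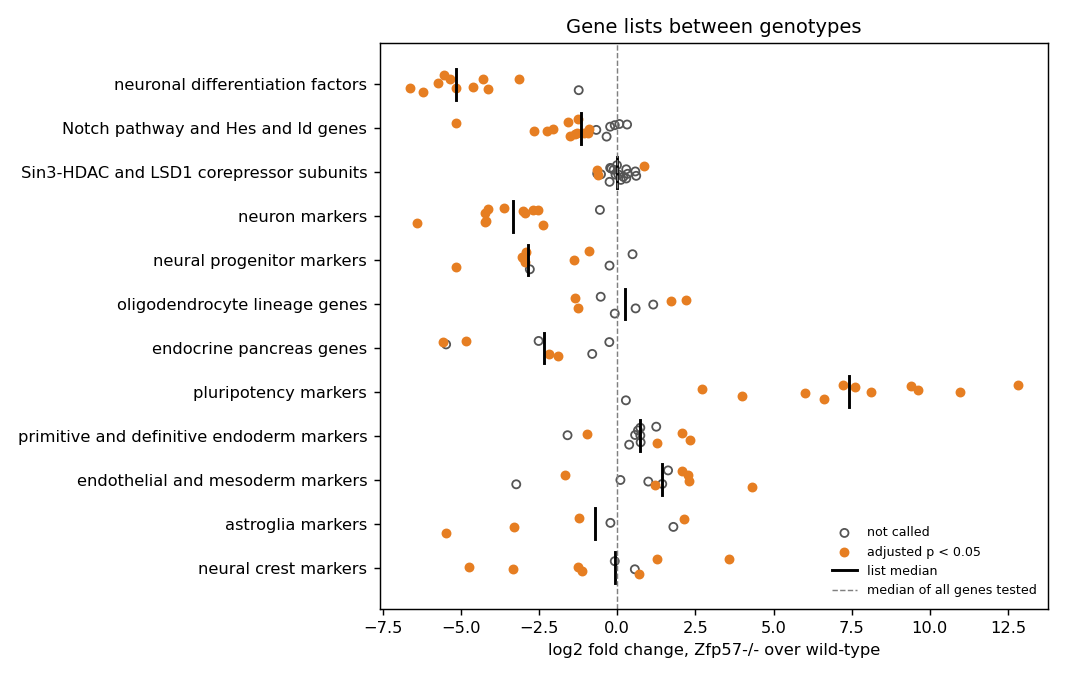
Log2 fold change (Zfp57-/- over wild-type) of each gene in 12 lists, with orange points for adjusted p under 0.05, open points for genes not called, black bars for list medians and a dashed line for the median of all genes tested. Neuronal differentiation factors and neuron markers lie on the left (medians -5.15 and -3.33), pluripotency markers on the right (7.41) and the corepressor subunits close to the dashed line (-0.01).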

How the data were processed

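RNA-seq of 2 wild-type and 2 Zfp57-/- replicates was analysed. Per the submitters' processing notes and the paper, reads were trimmed with Trimmomatic 0.36, aligned to GRCm38 with STAR 2.5.4a keeping unique alignments, and counted on GENCODE vM20 genes with featureCounts of Subread 1.6.0, on the matching strand per the file headers. The authors deposited raw counts of fragments per gene, and raw counts per gene and strain allele after SNP assignment, both without normalization. The submitters' DESeq2 1.24.0 results were not used. Gene IDs were matched to symbols for 54721 of 55602 genes.

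Genes with more than 8 counts over the 4 libraries were compared with edgeR 4.0.16 (R 4.3.3, TMM, robust quasi-likelihood test, Benjamini-Hochberg threshold 0.05). The allele test used library and allele terms on autosomal genes with at least 10 allelic counts in both wild-type libraries. Levels in log2 CPM used a prior count of 2, and FPKM the exon length of the table. Python 3.11.15 with pandas 2.3.3 and scipy 1.17.1 gave the summaries. The paper calls the replicates biological. The p-values measure the spread between replicates, which within a genotype come from the same ESC line. Simulated counts with known changes were used to check the code of the tests. They were drawn from the fitted bulk dispersions and from a set allelic spread, so they do not measure error among the real replicates.

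The members and the 12 gene lists were chosen with earlier results of these data known. The genes named are the members, the genes overlapping or nearest to them, the 5 most alike in profile, the 3 smallest adjusted p in each direction per list, and a set of named partners and markers, of which some are not reported here. Alternatives were DESeq2 1.42.0, other scalings (its size factors, Actb), other count filters, a replicate block, each library left out and, for neighbours, 500 kb in place of 1000 kb. Myt1l was limited by its SNP coverage, with 19 wild-type allelic counts or 6.01% of its bulk counts. Myt1 and St18 were limited by their low counts in Zfp57-/- cells. Amino acid sequences were not used here.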

Additional observations from a re-analysis of the deposited data

How the results depend on the processing

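The members fell in all 10 alternatives. Their log2 fold changes moved by more than the replicate spread only with Actb as the scale, to -7.21 for Myt1, -6.05 for Myt1l and -5.98 for St18. The median of all genes was -0.68 on that scale, and relative to it they were -6.53, -5.37 and -5.30. With one library left out they ranged from -6.76 to -6.28, from -5.68 to -4.55 and from -5.49 to -4.80. Over all genes, 5522 were called, 3480 with Actb as the scale (486 higher and 2994 lower, against 2607 and 2915 with TMM) and 2831 to 9947 with one library left out (9947 without wild-type replicate 2, 2831 and 2985 without Zfp57-/- replicates 1 and 2). Deviations of same-numbered replicates correlated at 0.147 over 15697 genes. With 2 pairs the numbers are not taken to pair the samples. The replicate block called 6984 genes and changed none of the members' directions (-6.52, -5.13 and -5.14).

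For the lists, Actb as the scale called 1 corepressor subunit, 1 oligodendrocyte, 2 endoderm, 2 endothelial and mesoderm, 2 astroglia and 4 neural crest genes, against 3, 4, 4, 6, 4 and 7. Corepressor calls were 5 with DESeq2, 6 without a count filter and 7 with the replicate block. Endoderm calls were 9 without a filter and 10 with the block. With one library left out, calls ranged from 0 to 9 for corepressor subunits, 1 to 5 for oligodendrocyte, 2 to 11 for endoderm (7 without wild-type replicate 1, 11 without wild-type replicate 2, 2 without Zfp57-/- replicate 2), 4 to 10 for endothelial and mesoderm (10 without wild-type replicate 1), 2 to 4 for astroglia (2 without Zfp57-/- replicate 2) and 4 to 7 for neural crest genes (4 without either Zfp57-/- replicate). The counts of the other lists stayed within 1.5 times.

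The allele test called 2591 genes, 1184 with DESeq2, 1135 with the replicate block and 1401 to 1629 without one wild-type replicate. St18 turned from 0.06 to -0.084 without wild-type replicate 2, ranging from -0.084 to 0.23, and Myt1 ranged from -0.36 to -0.19. Adjusted p lay between 0.209 and 0.892 for Myt1 and between 0.906 and 0.999 for St18, without a call. Within 500 kb, 4 of 23 genes were called near Myt1 and 1 of 2 near Myt1l. The cause of these changes was not tested.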

Other observations

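Markers of other cells that the cultures could hold were read in the same libraries as the members. Of 12 endoderm markers 3 were higher and 1 lower (median 0.74), with sums of 7256 and 11990 CPM in wild-type and 13923 and 20015 CPM in Zfp57-/- cells. Col4a1, Lama1 and Sparc made up most of these sums, and Col4a1 and Lama1 were not called. Cubn, the endocytic receptor cubilin, rose by 2.32 on the log2 scale (adjusted p = 0.000226), Amn, its partner amnionless, by 2.06 (adjusted p = 0.0364) and Sparc by 1.26 (adjusted p = 0.0383), while Sox7 fell by 0.98 (adjusted p = 0.0268). Of 11 endothelial and mesoderm genes tested, 5 were higher and 1 lower (median 1.44). T, the mesoderm factor Brachyury, had 117 and 345 wild-type counts against 985 and 1215 (2.27, adjusted p = 0.000857), Des rose by 2.30 (adjusted p = 0.00456), Mixl1 had 1 and 1 against 8 and 38 counts (adjusted p = 0.0160), and Kdr, a receptor of vascular growth factor, fell by 1.67 (adjusted p = 0.0232).

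Of 6 astroglia markers 3 fell and 1 rose (median -0.72). Slc1a2, a glutamate transporter, fell from 1179 and 1103 to 26 and 27 counts (-5.49, adjusted p = 2.5e-06), Slc1a3 fell by 1.23 (adjusted p = 0.0101) and Aqp4 had 10 and 11 against 1 and 1 counts (adjusted p = 0.0369), and Aldh1l1 rose by 2.12 (adjusted p = 0.00484). Gfap had at most 14 counts in any library. Of 9 neural crest markers 3 rose and 4 fell (median -0.08). Tfap2b fell from 572 and 1118 to 21 and 42 counts (-4.75, adjusted p = 1.33e-05), Tfap2a fell by 3.33 (adjusted p = 0.00297) and Twist1 fell by 1.14 (adjusted p = 0.0159). Foxd3, a factor of crest and of pluripotent cells, rose from 6 and 8 to 77 and 96 counts (3.56, adjusted p = 0.000467), Erbb3 by 1.28 (adjusted p = 0.00273) and Ets1 by 0.70 (adjusted p = 0.0355). The part of any of these cells in the members' levels was not tested.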
